A study of Mus musculus with 15 samples.

Results

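The response to downhill running that robust and frail mice had in common was examined in the gastrocnemius of all 15 sequenced mice, 8 that had run and 7 that had not. All were female C57BL/6JN mice (C57BL/6 in the sample labels) older than 17 months that carried no engineered allele and had all passed through the same frailty tests, treadmill running to exhaustion among them. Robust mice, the study's Low group, had at most 1 positive frailty marker and frail mice, its High group, had at least 2. Run mice (4 robust, D57, D61, D66 and D68, and 4 frail, D49, D52, D53 and D62) had completed 2 bouts on a decline of 22 degrees at 13 m/min and were sampled 24 h after the last bout, whereas control mice (4 robust, D8, D9, D11 and D98, and 3 frail, D23, D25 and D67) stayed in their cages. Frailty was assigned by cut-offs within the study's own cohort, and each library was 1 mouse. The question was which genes moved the same way in both frailty groups once the level of each group was allowed to differ.

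Running downhill makes the muscle lengthen while it is active, and such eccentric work strains sarcomeres and the fibre membrane more than level running does. Damaged fibres draw in white blood cells, with neutrophils first and macrophages after them, and macrophages clear debris and signal to satellite cells, the stem cells of muscle. Satellite cells then express myogenic factors such as myogenin, and regenerating or denervated fibres express the embryonic forms of the acetylcholine receptor. Interferons made during inflammation raise the genes of antigen presentation in many cell types.

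The deposited counts summed to between 19395125 and 30699216 per mouse (median 25926420), and 16920 of 55450 genes were abundant enough to be tested. Levels below are CPM, counts scaled to a common library size (TMM). The tissue was muscle in every mouse, with Ckm (muscle creatine kinase) between 18760 and 33560 CPM and Acta1 (skeletal actin) between 22370 and 41100 CPM. Robust control D9 and frail run D62 stood apart on the first principal component, which held 36.2% of the variance, with scores of -69.5 and -46.3, whereas the other mice lay between -13.2 and 16.6. Run mouse D61 held the highest levels of the lymphocyte genes Cd3e, Trac, Cd79a and Ms4a1. Counts that moved most with these mice are given with and without them. In bulk tissue, more cells of a type and more RNA per cell cannot be told apart.

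In the model with run and frailty as additive terms, edgeR's quasi-likelihood test called 0 genes at an FDR of 0.1, and the lowest adjusted p was 0.359. DESeq2's Wald test of the same model called 109 of 20901 genes (0.522%), 74 higher (0.354%) and 35 lower (0.167%) after running. All 98 of the 109 that edgeR also tested had an unadjusted edgeR p under 0.05. At that looser threshold, which is used below to count genes and to pick list members but is not a call, edgeR had 1490 genes (8.81%), of which 963 were higher in run mice (5.69%) and 527 were lower (3.11%). Of the 1490 genes, 1481 (99.4%, or 8.75% of the genes tested) had the same sign in robust and in frail mice, but the additive effect is built from those 2 effects, so this agreement follows in large part from how the genes were chosen. Over all genes tested 47.7% had the same sign in both groups, and the correlation across genes of the robust and the frail log2 fold change was 0.07. The share of all genes with opposite signs was 52.3% with all mice and 43% without D9 and D62. Without D9 and D62 there were again 0 genes called, with 983 higher and 680 lower at the unadjusted threshold, and without D61 as well there were 0, 964 and 769.

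**Figure D1:**
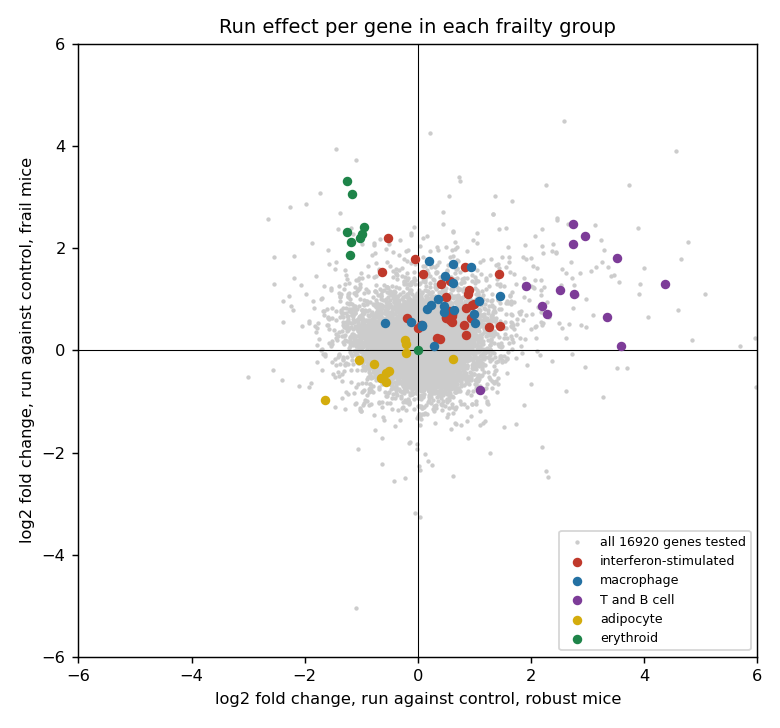
Log2 fold change of run against control in robust mice (horizontal axis) and in frail mice (vertical axis) for each gene tested, one point per gene, with 5 gene lists in colour and 3 genes beyond the axes not shown. Points of the macrophage, interferon-stimulated and T and B cell lists lie mostly in the upper right, adipocyte genes mostly in the lower left, and 8 of the 9 erythroid genes in the upper left, well away from the diagonal.

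Because robust and frail mice share no library, each group could also be fitted alone and read against the other, over 15596 genes tested in both. Genes higher after running in one group tended to be higher in the other. Of the 700 genes higher in robust mice at an unadjusted p under 0.05, 457 (65.3%) were also above 0 in frail mice, where 54.5% of all genes were, and 54 (7.71%) also passed the threshold there, against 2.78% of all genes. In the other order, 279 (64.4%) of the 433 genes higher in frail mice were above 0 in robust mice, against 51.4% of all genes, and 12.5% passed the threshold, against 4.49%. For genes lower after running there was no such excess with all mice. Of the 1078 genes lower in robust mice, 36.5% were below 0 in frail mice (45.5% of all genes) and 1.67% passed the threshold (1.93%). Of the 301 genes lower in frail mice, 45.2% were below 0 in robust mice (48.6% of all genes) and 5.98% passed (6.91%). In all, 98 genes passed in both groups, 54 higher in both, 18 lower in both and 26 in opposite directions. The number with the same direction was 72 with all mice, 198 without D62, 116 without D9 and D62 and 108 without D61 as well. The shares by direction were taken with all mice only, so whether lower genes lack an excess without D9 and D62 was not tested. These shares were compared as counts, since genes are not independent of each other.

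**Figure D2:**
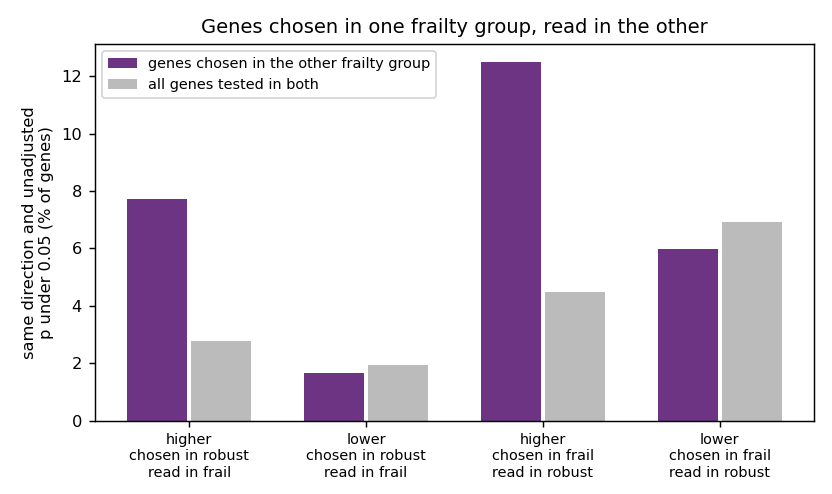
Percentage of genes with the same direction and an unadjusted p under 0.05 in the frailty group in which they were not chosen (purple), beside the percentage of all genes tested in both groups (grey). The purple bars for higher genes, 7.71% and 12.5%, exceed their grey bars, and those for lower genes, 1.67% and 5.98%, do not. All mice are included, D9 and D62 among them.

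Grouped by known function, the list members higher after running in the additive model were mainly genes of white blood cells and of interferon signalling. Genes of satellite cells and of the neuromuscular junction followed. Lists and members were chosen with earlier results of these data known, so their shares are a description and no independent check. The paper had already reported the members Mpeg1, Ctss, Ifi47 and Iigp1 as higher after running in its High group. At the unadjusted threshold 11 of 13 T and B cell genes, 12 of 20 macrophage genes, 17 of 32 interferon-stimulated genes, 8 of 25 satellite cell and regeneration genes and 5 of 19 neuromuscular junction and denervation genes were higher, beside 5.69% of all genes, and 0 members of these lists were lower. Genes could be abundant enough for testing through run mice alone, and Cd3e and Trac were at most 0.232 and 0.258 CPM in controls. With at least 10 counts required in every mouse, fewer genes were tested. The numbers higher were then 1 for T and B cell, 8 for macrophage and 16 for interferon-stimulated genes. They were 6 for satellite cell and 4 for neuromuscular junction genes. Signs were opposite in the 2 frailty groups for 10 of the 19 neuromuscular junction genes and 9 of the 25 satellite cell genes, beside 52.3% of all genes. For the T and B cell, macrophage and interferon lists this held for 1, 2 and 5 members. Chrna1 is on both the satellite cell and the neuromuscular junction list. On the lower side stood 5 of 11 adipocyte genes, 4 of 25 genes of calcium release and reuptake (2 without D68) and 4 of 34 regulators of muscle signalling (9 without D62), beside 3.11% of all genes. No heat shock, clock, complex I, angiogenesis, endothelial or smooth muscle gene on the lists passed the threshold in either direction with all mice. When 1 mouse was left out, up to 3 angiogenesis and 2 clock genes were lower (both without D62) and at most 1 gene of each of the other 4 lists passed. The median log2 fold change was 0.68 over the macrophage list, 0.66 over the interferon list, 1.99 over the T and B cell list and -0.51 over the adipocyte list, beside 0.02 over all genes.

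**Figure D3:**
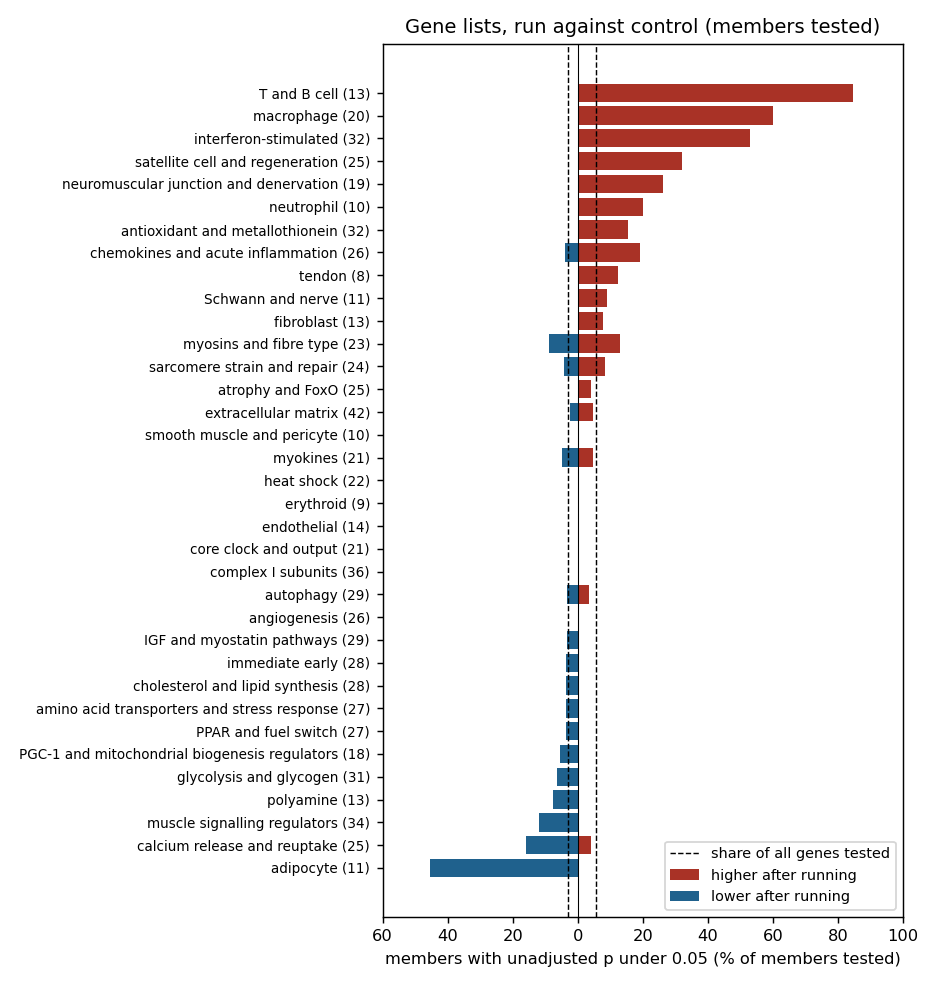
Members of each gene list with an unadjusted p under 0.05 for run against control in the additive model, as a percentage of the members tested (number in brackets), higher to the right and lower to the left. Dashed lines mark the shares of all genes tested, 5.69% and 3.11%, and the longest bars to the right are those of the T and B cell (84.6%), macrophage (60%) and interferon-stimulated lists (53.1%). With at least 10 counts required in every mouse, 1 T and B cell gene was higher. The lists were chosen with earlier results of these data known.

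The gene with the smallest p was Kcnn4, a calcium-activated potassium channel of lymphocytes and macrophages (chromosome 7, 24370263-24386690, + strand, GRCm38). Its level was 0.564, 0.248, 0.663 and 0.425 CPM in robust controls D8, D9, D11 and D98 and 0.888, 0.849 and 0.67 CPM in frail controls D23, D25 and D67. In run mice it was 0.967, 3.03, 1.15 and 1.85 CPM in robust D57, D61, D66 and D68 and 1.98, 2.12, 2.75 and 1.13 CPM in frail D49, D52, D53 and D62. Every run mouse lay above every control mouse of either group, as for 5 genes in all (0.0296% of those tested). The log2 fold change was 1.6 ± 0.29 (SE), with 1.88 in robust and 1.30 in frail mice, an edgeR adjusted p of 0.359 and a DESeq2 adjusted p of 0.00516. These levels rest on 6 to 84 counts per mouse. The other 4 genes without overlap, named after their values were seen, were Dok3, an adaptor of B cell and macrophage signalling (log2 fold change 0.67 ± 0.15), Arrb2, which desensitises G protein-coupled receptors (0.45 ± 0.11), the ATP-gated channel P2rx4 (0.31 ± 0.09) and Bik, a promoter of apoptosis (0.62 ± 0.19). Dok3 was between 2.03 and 3.34 CPM in controls and between 3.44 and 5.8 CPM in run mice.

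Other genes of leukocytes followed among those with the smallest p. Cotl1, an actin-binding protein abundant in white blood cells, was 7.25, 3.68, 7.92 and 8.38 CPM in robust controls and 15.3, 16.4, 8.01 and 17.9 CPM in robust run mice. In frail mice it was 6.02, 7.16 and 7.42 CPM in controls and 13.3, 11.5, 13.8 and 8.66 CPM after running, so that 7 of 8 run mice were above the highest control and D66 was not. The log2 fold change of Cotl1 was 0.94 ± 0.19 (DESeq2 adjusted p = 0.0119). Cyba, a membrane subunit of the phagocyte NADPH oxidase, differed by 0.82 ± 0.18 (DESeq2 adjusted p = 0.0258), and 6 of 8 run mice exceeded the highest control. Cybb, its catalytic partner, differed by 0.81 ± 0.27 (DESeq2 adjusted p = 0.238), with 3 of 8 run mice above every control. Traf3ip3, an adaptor of lymphocytes, differed by 1.22 ± 0.25, the aspartic protease Napsa by 1.75 ± 0.35 and Id2, an inhibitor of basic helix-loop-helix factors, by 0.67 ± 0.14. For these 3 genes the DESeq2 adjusted p was 0.0156, 0.00516 and 0.0231, and the edgeR adjusted p was 0.359 for each.

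Of the macrophage list, 18 of the 20 members were above 0 in both frailty groups, where 28.4% of all genes were. Mpeg1, a pore-forming protein that macrophages use against bacteria, was 7.94, 6.95, 9.77 and 8.65 CPM in robust controls and 15.8, 18.1, 9.42 and 7.92 CPM in robust run mice. It was 5.21, 4.28 and 5.6 CPM in frail controls and 17.6, 12.9, 9.47 and 10.1 CPM in frail run mice. The frail groups were thus apart by a wide margin, whereas in robust mice D66 and D68 lay within the control range. Mpeg1 differed by 0.93 ± 0.21 on the log2 scale, with 0.62 in robust and 1.31 in frail mice (DESeq2 adjusted p = 0.0231). Ctss, the lysosomal protease cathepsin S that trims the invariant chain in antigen-presenting cells, had the same form. Robust controls were at 10.4, 8.94, 18 and 13.4 CPM and robust run mice at 25.2, 27.3, 11.3 and 13.7 CPM, with D66 and D68 again among the controls. Frail controls were at 6.29, 6.94 and 9.43 CPM and frail run mice at 28.9, 19.6, 31.4 and 18 CPM. The additive log2 fold change of Ctss was 1.10 ± 0.26 (DESeq2 adjusted p = 0.025), and the effects of 0.61 in robust and 1.70 in frail mice differed with an unadjusted p of 0.0254 (edgeR adjusted p = 0.6). C1qa, a chain of complement C1q that resident macrophages make, differed by 0.70 ± 0.19 (DESeq2 adjusted p = 0.0926) and Lyz2, the lysozyme of myeloid cells, by 0.68 ± 0.17 (DESeq2 adjusted p = 0.0634). Summed over the list, the level was 140 to 238 CPM in robust controls, 187 to 273 in robust run mice, 102 to 158 in frail controls and 196 to 319 in frail run mice. The number of macrophage genes higher after running was 11 to 14 when any 1 mouse was left out and 13 without D9 and D62. Without D9 and D62, however, 6 of the 20 members had opposite signs in the 2 frailty groups (2 with all mice). Their medians were then 0.35 in robust and 1.07 in frail mice. For 8 of the 20 (4 with all mice) the run effect then differed between the groups at an unadjusted p under 0.05. Over all genes this held for 740 of 16724.

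**Figure D4:**
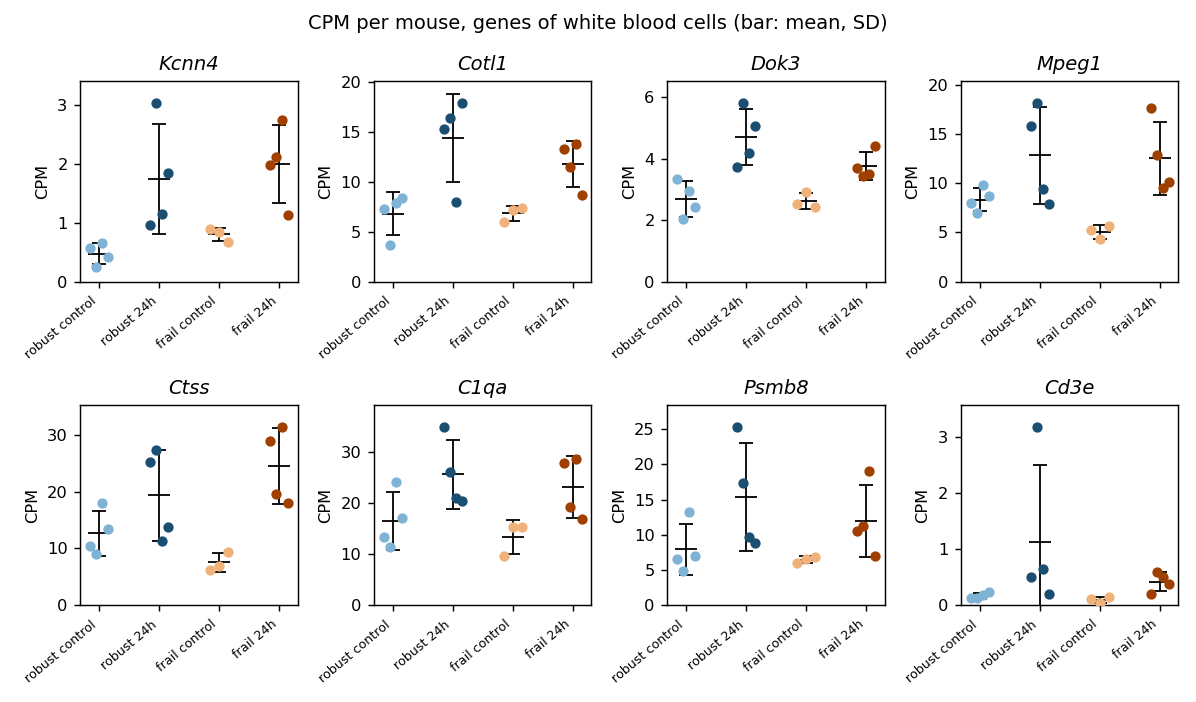
Level in CPM of 8 genes expressed in white blood cells, one point per mouse and one panel per gene with its own axis from 0, for robust control, robust run (24h), frail control and frail run (24h) mice, with the mean and SD of each group. Run mice reach higher levels in both frailty groups, with Kcnn4 and Dok3 free of overlap between all run and all control mice, and 1 robust run mouse (D61, 3.17 CPM) far above the others for Cd3e.

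Of the interferon-stimulated genes, 27 of 32 were above 0 in both frailty groups, and the median log2 fold change was 0.59 in robust and 0.71 in frail mice. Several belong to the presentation of antigen on MHC class I. H2-D1, the class I heavy chain, whose reads can be shared with its close relatives, was 137, 133, 183 and 116 CPM in robust controls and 296, 199, 141 and 166 CPM in robust run mice. In frail mice it was 123, 123 and 142 CPM in controls and 171, 184, 219 and 235 CPM after running, with no overlap between the frail groups. Its log2 fold change was 0.56 ± 0.15 (DESeq2 adjusted p = 0.097). Psmb8, a subunit of the immunoproteasome, was 6.55, 4.84, 13.2 and 7.06 CPM in robust controls, 25.3, 17.4, 9.72 and 8.87 CPM in robust run mice, 5.99, 6.61 and 6.85 CPM in frail controls and 10.5, 11.3, 19.1 and 6.96 CPM in frail run mice. Control D11 was above several run mice, and the log2 fold change of 0.92 ± 0.27 had a DESeq2 adjusted p of 0.108. Ifi47, a GTPase induced by interferon gamma, differed by 1.18 ± 0.33 (DESeq2 adjusted p = 0.0773), with 2 of 8 run mice above the highest control. Its effects of 0.84 in robust and 1.63 in frail mice differed with an unadjusted edgeR p of 0.242. The paper lists Ifi47 and Iigp1 among the genes changed by running in its High group only. All other members past the unadjusted threshold had log2 fold changes above 0, among them the peptide transporter Tap1 (0.98), the class I light chain B2m (0.58) and the GTPases Iigp1 (1.47), Igtp (1.00) and Gbp2 (0.84). The number of members higher depended on which mice were included: it was 10 without run mouse D57, whose summed level of 1650 CPM was the highest, and 27 without control D11, whose 980 CPM was the highest among controls.

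The interferon-stimulated response element, written GAAA, any 2 bases and GAAA again, and searched on both strands, stood in the 250 bases before the RefSeq start of 14 of the 26 interferon-list genes that have such a window, of 2 of 15 macrophage genes and in 2.98% of 32851 windows of that length. One of those macrophage genes was Ctss, and its window is shown because the gene belongs to both the myeloid and the antigen-presenting side of the response. It spans chr3:95526536-95526785 on the + strand (GRCm38.p6, RefSeq), the capitals mark the element, and its first base lies 21 bases before the start.
Ctss: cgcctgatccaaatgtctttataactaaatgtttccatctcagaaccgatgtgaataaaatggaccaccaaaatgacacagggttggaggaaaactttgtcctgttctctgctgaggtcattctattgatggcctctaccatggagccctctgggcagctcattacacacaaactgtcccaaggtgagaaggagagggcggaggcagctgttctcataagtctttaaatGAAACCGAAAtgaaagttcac
A match is a description of the letters and does not show that a factor was bound. Here and for the motifs below, a list gene was counted if any of its windows held a match. The share of all windows is one of single windows, so the 2 are not strictly alike.

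Genes of T and B cells had larger fold changes at much lower levels. Cd3e, a signalling chain of the T cell receptor complex, was 0.13, 0.124, 0.177 and 0.232 CPM in robust controls and 0.504, 3.17, 0.639 and 0.201 CPM in robust run mice. It was 0.116, 0.0369 and 0.144 CPM in frail controls and 0.206, 0.591, 0.504 and 0.378 CPM in frail run mice. All frail run mice were above the frail controls, and 6 of 8 run mice were above the highest control of either group. The log2 fold change was 2.5 ± 0.55 with all mice (DESeq2 adjusted p = 0.0236) and 1.70 without D61. Trac, the constant part of the T cell receptor alpha chain, differed by 2.75 ± 0.72 and by 1.91 without D61, and Cd79a, a signalling chain of the B cell receptor chosen after its values were seen, by 2.84 ± 0.76 and by 1.62 without D61. These genes held few reads, between 1 and 88 counts per mouse for Cd3e and between 0 and 145 for Cd79a. Of the 13 list members tested, 11 were higher with all mice, 8 without D61 and 6 without D9, D61 and D62. With at least 10 counts required in every mouse, a filter that Cd3e, Trac and Cd79a do not pass, 1 list member was higher. The summed level of the list was 72.1 to 473 CPM (median 81.3) in robust controls and 39.3 to 909 CPM (median 315) in robust run mice. In frail mice it was 142 to 494 CPM (median 206) in controls and 130 to 246 CPM (median 165) after running, so that its median was lower in frail run mice. Dnase1l3, a secreted DNase of dendritic cells and macrophages chosen after its values were seen, was also highest in D61, with 4.65 CPM, and differed by 2.14 ± 0.49 (DESeq2 adjusted p = 0.0231).

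Among chemokines and acute inflammation genes 5 of 26 were higher (9 without D66) and 1 was lower at the unadjusted threshold. Cxcl9, a chemokine that attracts activated T cells, was 0.868, 0.455, 1.37 and 0.54 CPM in robust controls and 11.1, 11.1, 2.09 and 0.902 CPM in robust run mice. It was 0.772, 0.849 and 0.287 CPM in frail controls and 1.73, 1.67, 1.31 and 0.567 CPM in frail run mice, so that the highest levels were those of robust run mice D57 and D61. On the log2 scale Cxcl9 differed by 2.13 ± 0.56 (DESeq2 adjusted p = 0.0265). Saa3, an acute-phase protein made at sites of inflammation, differed by 2.20 ± 0.49 (DESeq2 adjusted p = 0.0629) on 1 to 16 counts per mouse. The member past the unadjusted threshold in the other direction was Ptgs2, the inducible prostaglandin synthase, with a log2 fold change of -1.33 (DESeq2 adjusted p = 0.25). For neutrophils, the granule genes Ngp and Ltf were high in 1 robust run mouse, D68, with 15.6 and 3.51 CPM, and in 1 frail run mouse, D53, with 10.2 and 6.35 CPM. In the other 6 run mice Ngp was between 0.0348 and 0.741 CPM, where controls were between 0.0369 and 0.304 CPM. The log2 fold change of Ngp, 4.28 ± 1.27 with all mice, was 2.57 without D68, and DESeq2 gave no adjusted p for it.

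Some genes of regeneration and of the fibre's synapse were higher by moderate amounts. Over the whole satellite cell and neuromuscular junction lists the median log2 fold change was 0.24 and 0.15, and DESeq2 called 0 members of either. Signs were opposite in the 2 frailty groups for 9 of 25 and 10 of 19 members, beside 52.3% of all genes. Chrna1, the alpha subunit of the muscle acetylcholine receptor, was 20.1, 18.9, 32.7 and 35.7 CPM in robust controls and 62.6, 23, 33.8 and 39.3 CPM in robust run mice. It was 19.9, 31.3 and 21.8 CPM in frail controls and 37, 46.2, 32.5 and 48.3 CPM in frail run mice. Frail run and control mice did not overlap, robust ones did, and the log2 fold change was 0.65 ± 0.20 (DESeq2 adjusted p = 0.197). Chrng, the gamma subunit of the embryonic receptor, differed by 1.42 ± 0.47 (DESeq2 adjusted p = 0.164) and by 0.97 without D57. It was between 1.23 and 1.88 CPM in frail run mice and between 0.287 and 0.554 CPM in frail controls, but between 0.468 and 4.25 CPM in robust run mice and between 0.0828 and 1.39 CPM in robust controls. The delta subunit Chrnd differed by 0.59, the beta subunit Chrnb1 by 0.44, the fusion protein Mymk by 1.20 and myogenin (Myog), which drives myoblast differentiation, by 0.91. Myog was highest in D62, with 48.5 CPM, and its log2 fold change was 0.53 without that mouse. With all mice the effect on Myog was 0.31 in robust and 1.64 in frail mice (DESeq2 adjusted p = 0.387 for the additive effect). Vcam1, an adhesion protein of satellite cells and endothelium, differed by 0.52 ± 0.17, with 6 of 8 run mice above the highest control. The number of satellite cell and regeneration genes higher was 8 with all mice, 5 without D9 and D62 and 10 without D61 as well.

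The windows before Chrna1 and Chrng are shown because both subunits were higher in both frailty groups and both windows hold the letters CAGCTG, a form of the E-box that myogenic factors can bind, found in 13% of all windows and in 5 of the 13 neuromuscular junction genes with one. They span chr2:73580339-73580588 on the - strand and chr1:87205561-87205810 on the + strand (GRCm38.p6, RefSeq), the capitals mark CAGCTG, which reads the same on both strands, and the window of Chrng lies inside the longer gene model of GENCODE.
Chrna1: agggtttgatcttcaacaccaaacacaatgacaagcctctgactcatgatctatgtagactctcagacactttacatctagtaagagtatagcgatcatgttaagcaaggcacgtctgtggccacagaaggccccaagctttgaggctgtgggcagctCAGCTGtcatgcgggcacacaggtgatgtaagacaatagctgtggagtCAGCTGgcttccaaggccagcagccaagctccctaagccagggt
Chrng: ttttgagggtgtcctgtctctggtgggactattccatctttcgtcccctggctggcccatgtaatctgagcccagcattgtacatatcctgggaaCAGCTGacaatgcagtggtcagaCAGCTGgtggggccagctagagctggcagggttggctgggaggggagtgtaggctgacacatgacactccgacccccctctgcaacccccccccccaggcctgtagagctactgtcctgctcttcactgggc
The matches begin 92 and 44 bases before the start of Chrna1 and 155 and 132 bases before that of Chrng.

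Genes of the fibre itself moved both ways. Sln, which encodes sarcolipin, a small inhibitor of the calcium pump that rises in many stressed muscles, had the largest fold among the calcium genes. It was 11.7, 10.6, 26.7 and 27.7 CPM in robust controls, 111, 18.6, 50.6 and 11.9 CPM in robust run mice, 6.72, 8.79 and 4.98 CPM in frail controls and 28.2, 41.3, 15.6 and 88.8 CPM in frail run mice. The frail groups did not overlap, and in robust mice D61 and D68 lay within the control range. Run and control mice differed by 1.92 ± 0.50 on the log2 scale (DESeq2 adjusted p = 0.0576). The pump itself, Atp2a1, was lower by a small amount, -0.27 ± 0.10 (DESeq2 adjusted p = 0.184), as were the calcium channel subunits Cacna2d1 (-0.31 ± 0.09) and Cacna1s (-0.28) and the junctional protein Jph1 (-0.30). Myh4, the myosin of the fastest fibres, was 69200, 49900, 48800 and 56100 CPM in robust controls and 37100, 43500, 46900 and 32700 CPM in robust run mice. It was 58600, 51100 and 51800 CPM in frail controls and 50200, 42400, 34400 and 31600 CPM in frail run mice. Within each frailty group every run mouse was below every control, as for 25 genes in all (0.148% of those tested), and the log2 fold change was -0.46 ± 0.12 (DESeq2 adjusted p = 0.0629). The log2 fold changes of the slow troponins Tnni1 (0.58 ± 0.21), Tnnt1 (0.48 ± 0.18) and Tnnc1 (0.55) were above 0, with DESeq2 adjusted p of 0.286, 0.361 and 0.372. Of the 23 myosin and fibre type genes tested, 3 were higher (13%) and 2 lower (8.7%) at the unadjusted threshold. The shares of all genes were 5.69% and 3.11%. Signs were opposite in the 2 frailty groups for 9 of the 23, and the list's median log2 fold change was 0.09. Pygm, which breaks down glycogen in muscle, was lower by -0.35 ± 0.10 (DESeq2 adjusted p = 0.097), and the regulatory subunit Phka1 of the kinase that activates it by -0.43 ± 0.16 (DESeq2 adjusted p = 0.352).

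**Figure D5:**
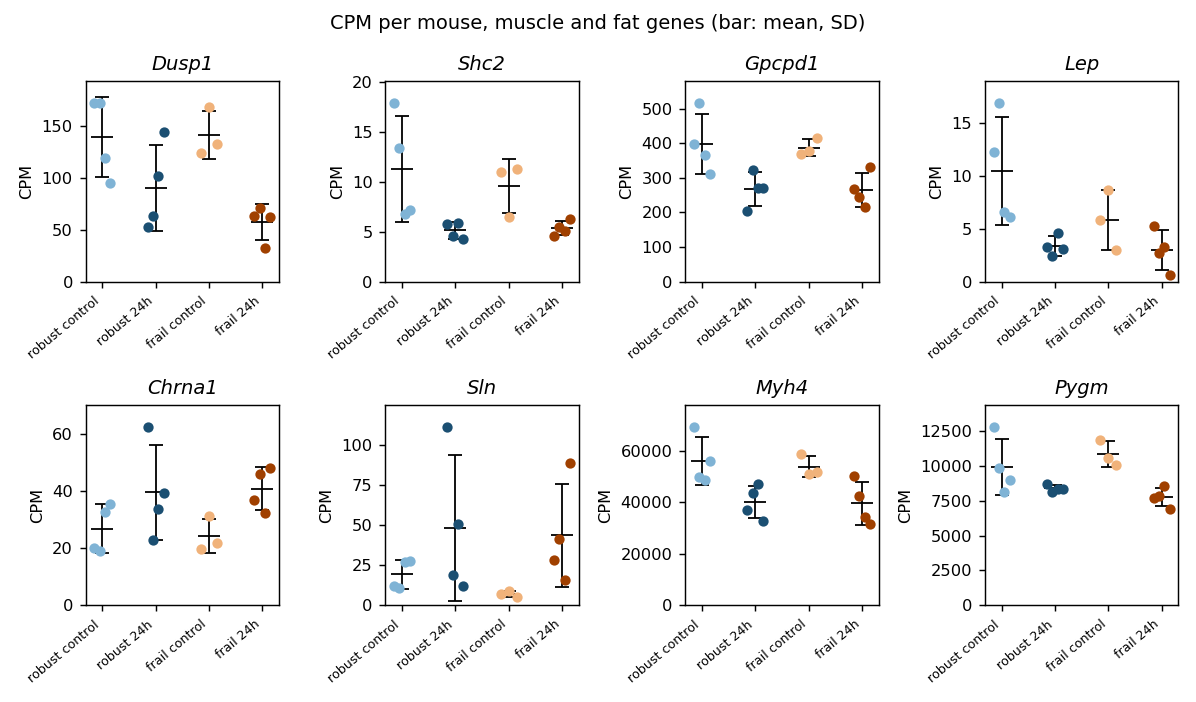
Level in CPM of 8 genes of muscle fibres, their synapse and fat, one point per mouse and one panel per gene with its own axis from 0, for robust control, robust run (24h), frail control and frail run (24h) mice, with the mean and SD of each group. Shc2 is below every control in all 8 run mice, Myh4 is lower in run mice of each frailty group, and Sln reaches 111 CPM in a robust and 88.8 CPM in a frail run mouse.

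The genes lower after running with the smallest p included several signalling proteins. Shc2, an adaptor of receptor tyrosine kinases, was 17.9, 13.4, 6.81 and 7.18 CPM in robust controls and 5.8, 4.61, 5.88 and 4.26 CPM in robust run mice. It was 11, 6.46 and 11.3 CPM in frail controls and 4.61, 5.5, 5.07 and 6.3 CPM in frail run mice. All 8 run mice were below the lowest control, as for 11 genes in all (0.065%), and the log2 fold change was -1.0 ± 0.20 (DESeq2 adjusted p = 0.00836). Gm7049, a processed pseudogene on chromosome 13 whose reads may belong to the gene it copies, also showed no overlap (-0.43 ± 0.09). The other 9, named after their values were seen, were Atmin, Zbtb18, Cul3, Txlnb, Vezf1, Alkbh5, Zdhhc3, Cop1 and Cnot11. Gpcpd1 and Gdpd5, a pair of glycerophosphodiesterases, differed by -0.56 ± 0.13 and -0.49 ± 0.12 (DESeq2 adjusted p = 0.0261 and 0.0595). Tab2, an adaptor of the TAK1 kinase, differed by -0.43 ± 0.10, Ppp3cb, a catalytic subunit of calcineurin, by -0.30 ± 0.08, the kelch protein Kbtbd12 by -0.45 ± 0.11 and Prima1, the membrane anchor of acetylcholinesterase, by -1.14 ± 0.28. For these 4 genes DESeq2's adjusted p was 0.0231, 0.00516, 0.0453 and 0.0453, and edgeR's was 0.359. Lrrc52, a subunit of potassium channels, differed by -0.93 ± 0.22, with -1.35 in robust and -0.46 in frail mice.

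Dusp1, the phosphatase that switches off stress-activated MAP kinases, was the 1 immediate early gene of 28 past the unadjusted threshold, a share near the 3.11% of all genes. The number was 8 without robust control D98. It was 172, 172, 119 and 94.8 CPM in robust controls and 53, 62.9, 102 and 144 CPM in robust run mice. It was 124, 168 and 133 CPM in frail controls and 63.1, 71.4, 32.6 and 62.4 CPM in frail run mice. The frail groups were far apart, the robust groups overlapped, and the log2 fold change was -0.94 ± 0.23 (edgeR adjusted p = 0.359, DESeq2 adjusted p = 0.043). The window before its RefSeq start, chr17:26508473-26508722 on the - strand (GRCm38.p6), is shown as that of the immediate early gene with the smallest p. It holds 1 cyclic AMP response element, TGACGTCA, in capitals, a site that 1.55% of all windows and 3 of 21 immediate early genes hold, and its first base lies 143 bases before the start.
Dusp1: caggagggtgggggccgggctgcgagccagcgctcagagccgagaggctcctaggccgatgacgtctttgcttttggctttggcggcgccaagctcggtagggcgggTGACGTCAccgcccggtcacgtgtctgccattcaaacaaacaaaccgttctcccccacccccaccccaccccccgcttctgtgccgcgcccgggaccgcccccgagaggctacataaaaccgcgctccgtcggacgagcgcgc

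Of the lists, that of fat cell genes had the largest share lower with all mice. Lep, the hormone leptin, was 12.3, 16.9, 6.63 and 6.14 CPM in robust controls and 3.28, 2.38, 4.65 and 3.11 CPM in robust run mice, without overlap. It was 5.79, 8.71 and 2.97 CPM in frail controls and 5.27, 2.75, 3.29 and 0.661 CPM in frail run mice, where the groups overlapped. On the log2 scale Lep differed by -1.34 ± 0.36 (DESeq2 adjusted p = 0.0505), with -1.65 in robust and -0.98 in frail mice. Lipe, hormone-sensitive lipase, differed by -0.54 ± 0.16, and 7 of 8 run mice were below the lowest control, D62 being the exception. The lipid droplet genes Cidec (-0.65) and Plin1 (-0.59) and the hormone Adipoq (-0.51, and -0.27 without D25) completed the 5. Of the 11 members 8 were below 0 in both frailty groups, where 19.3% of all genes were, and the number lower at the unadjusted threshold was between 2 (without D25) and 6 (without D9) when 1 mouse was left out and 3 with upper-quartile scaling. The summed level of the list did not follow these genes in robust mice, at 2630 to 5950 CPM (median 4140) in controls and 4840 to 7460 CPM (median 6070) after running, and it was 4340 to 6280 CPM (median 5910) in frail controls and 4450 to 5610 CPM (median 4880) in frail run mice. The share of fat in each sample was not measured, and its part in these values was not tested.

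Some lists had no shared direction with all mice. All 9 erythroid genes had opposite signs in the 2 frailty groups, with medians of -1.17 in robust and 2.27 in frail mice, and for 8 of them the effects differed between the groups at an unadjusted p under 0.05, where 7.93% of all genes did (Bpgm, the remaining one, was close to 0 in both). The erythroid sum was highest in frail run mouse D53, at 4170 CPM, and in robust control D11, at 2590 CPM, and without these 2 mice the medians were -0.15 and 1.28, with 8 of 9 genes opposite. Of 25 genes of atrophy and FoxO signalling, 19 (76%) had opposite signs with all mice, beside 52.3% of all genes (medians -0.70 and 0.51). Their summed level was 17100 CPM in D9 and 14300 CPM in D62 and between 2640 and 6680 CPM in the other mice, and without D9 and D62 8 (32%) were opposite, beside 43% of all genes, with medians of -0.20 and -0.23 and 7 genes lower at the unadjusted threshold (0 with all mice, 12 without D62). For complex I subunits 30 of 36 (83.3%) were opposite with all mice (medians 0.25 and -0.10), beside 52.3% of all genes. Without D9 and D62 19 (52.8%) were opposite, beside 43% of all genes. Without D11 and D53 all 36 were, beside 60% of all genes (medians 0.26 and -0.25). The run effect differed between the groups at an unadjusted p under 0.05 for 4 subunits with all mice. That number was 1 without D9 and D62 and 21 without D11 and D53, where it was 2626 of 16748 over all genes. Over all genes, edgeR called 0 differences of the run effect between the frailty groups at an FDR of 0.1, and 1342 had an unadjusted p under 0.05 (740 without D9 and D62). In the same model 2274 genes (13.4%) had an unadjusted p under 0.05 for the run effect in robust mice and 877 (5.18%) in frail mice.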

How the data were processed

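Gastrocnemius polyA RNA of 15 mice was sequenced. The authors used STAR 2.7.9a with genome build mm10 and then featureCounts, which took properly paired, uniquely placed reads of the gene's own strand over non-mitochondrial Ensembl genes, and the deposited counts are whole numbers per gene without normalization. A deposited variance-stabilized table was not used. Genes were kept by filterByExpr (edgeR 4.0.16, R 4.3.3), scaled by TMM and compared with edgeR's quasi-likelihood F-test, with Benjamini-Hochberg adjustment at an FDR of 0.1, in a model with frailty and run as terms, and, for each frailty group and their difference, in a model with 1 mean per group. DESeq2 1.42.0 (Wald test) and voom (limma 3.58.1) were alternatives. Fold changes are log2 with an SE, and levels are TMM-scaled CPM. The SE was derived from edgeR's test, as the absolute log2 fold change divided by the square root of the F statistic. Totals of 19395125 to 30699216 counts limit the precision of genes with few counts. Gene positions and symbols were those of GENCODE M21 (GRCm38, the assembly mm10 is built from), and promoter windows from RefSeq.

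Gene lists were described by counts beside all genes, without a set test. Named genes were the 10 higher and 10 lower with the smallest p and the same sign in both groups (edgeR called none, and DESeq2 called some), and the 2 list members with the smallest p, and genes named otherwise were chosen after their values were seen. Members, lists and rules were chosen with earlier results of these data known. On simulated data for run against control (16920 genes, 200 changed by a log2 fold change of 1) edgeR recovered 175 with 11 false calls, and DESeq2 186 with 43. With 200 changed by 2, edgeR recovered 195 with 14 false calls, and DESeq2 199 with 47. Changed genes were drawn from those with a mean above 1 CPM, and the simulated counts held no frailty effect and no outlying mice. Recovery in the real data, and for genes of lower level, was not tested. Alternatives were other scalings, count filters, models, tests and length and GC offsets, and each mouse left out in turn. Leaving out D61 with D9 and D62, and the fits of opposite signs without D9 and D62 or without D11 and D53, were added after seeing the data.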

Additional observations from a re-analysis of the deposited data

Results flagged for a closer look

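Of 222 groups of 4 mice examined, 20 held a mouse far from the other 3 by Dixon's test at the 95% level, where chance alone gives about 1 in 20 groups. Lymphocyte genes were set apart in robust run mouse D61. Cd3e was 3.17 CPM there (0.201 to 0.639 in the other 3), Trac 3.42 CPM (0.336 to 0.551), Cd79a 5.22 CPM (0.168 to 0.639) and Dnase1l3 4.65 CPM (0.852 to 1.14), and Prima1, the anchor of acetylcholinesterase, was 1.66 CPM (1.02 to 1.05). The summed T and B cell list was instead set apart in robust control D11, at 473 CPM (72.1 to 83.3).

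Neutrophil granule genes were set apart in 1 run mouse of each frailty group. In robust run D68, Ngp was 15.6 CPM (0.0426 to 0.673 in the other 3) and Ltf 3.51 CPM (0.0852 to 0.288), and in frail run D53 they were 10.2 CPM (0.0348 to 0.741) and 6.35 CPM (0.0315 to 0.288). The summed neutrophil list was 516 CPM in D68 (15.1 to 21.9) and 81.7 CPM in robust control D8 (13.4 to 23.9).

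Other mice stood apart for single genes. Among robust controls, Saa3 was 0.154 CPM in D98 (0.0414 to 0.0442), Myog 4.38 CPM (12.3 to 12.7) and Nr4a2 5.6 CPM (3.32 to 3.56) in D8, and Cmya5 2330 CPM in D11 (2800 to 2820). Among run mice, Vcam1 was 5.01 CPM in D68 (8.91 to 9.58), Gm7049 24.3 CPM in D53 (29.4 to 30.2), Kbtbd12 18.9 CPM in D62 (24.5 to 25.6) and Nr4a2 2.55 CPM in D49 (3.37 to 3.53).

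For 7 of the 62 named genes the run effect differed between frail and robust mice at an unadjusted p under 0.05, with an edgeR adjusted p of 0.6 for each. The frail minus robust difference in log2 fold change was 1.08 for Ctss, 1.27 for the metallothionein Mt3, 0.859 for the stretch-responsive Ankrd1 and 0.891 for Lrrc52. It was -1.27 for the nuclear receptor Nr4a2, -3.08 for Trac and -3.51 for the B cell gene Ms4a1. Trac and Ms4a1 were highest in D61.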

How the results depend on the processing

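All 62 named genes kept the sign of their log2 fold change in every alternative that gave them a value. Most of these genes were chosen for a small p in the same mice, and the alternatives refitted the same counts or most of them. Unchanged signs were therefore likely from the start and are no independent check. DESeq2 called 36 of them and edgeR without a count filter called 12, and edgeR called 0 under the other alternatives. The number of genes called was 109 with DESeq2 and 19 with no count filter, and the cause was not tested. On simulated data DESeq2 made more false calls than edgeR, but those data held no frailty effect and no mice set apart. The calls in the real data therefore cannot be judged from them. At the unadjusted threshold the number lower was 321 with upper-quartile scaling. Without a count filter there were 1853 higher and 807 lower, 1715 within frail mice, 2588 differing between the groups and 230 with the same direction in both groups fitted alone, over more genes. With voom and quality weights there were 1385 within robust and 2300 within frail mice, against 2274 and 877. Without D9 and D62 there were 1226 within robust mice, 740 differing between the groups and 116 replicated.

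When each mouse was left out in turn, edgeR called 0 genes each time. The number higher ranged from 722 to 1154, the number lower from 335 (without D57) to 999 (without D62), the number within robust mice from 846 (without D9) to 2898, within frail mice from 586 to 1139, and the number differing between groups from 785 to 2357. Replicated genes ranged from 34 (without D23) to 198 (without D62) and list members past the threshold from 84 to 169 (without D62), against 72 and 101. No paired analysis was possible because the mice carry individual identifiers and no shared replicate numbers. Genes with few counts, such as Saa3 (1 to 16 counts per mouse), are limited by depth.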

Other observations

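Of 32 antioxidant and metallothionein genes 5 were higher after running and 0 lower at the unadjusted threshold (2 higher without D8, 3 lower without D62), beside 5.69% and 3.11% of all genes. Mt3, a metal-binding metallothionein, was 2.13, 2.44, 1.28 and 1.62 CPM in robust controls, 4.54, 1.12, 2.13 and 3.36 CPM in robust run mice, 0.734, 1.03 and 1.87 CPM in frail controls and 3.33, 4.35, 4.87 and 4.63 CPM in frail run mice. The frail groups did not overlap and the robust groups did, and the log2 fold change was 1.14 ± 0.32 (DESeq2 adjusted p = 0.0743). The peroxidases Gpx1 (0.31), Gpx4 (0.19) and Prdx2 (0.21) differed by less. Among 24 sarcomere strain and repair genes, Ankrd1, a stretch-responsive titin partner, was between 34.4 and 36.8 CPM in frail controls and between 57.4 and 89.9 CPM in frail run mice, whereas robust controls (58.4 to 79.3 CPM) and robust run mice (55.8 to 112 CPM) overlapped. Cmya5, a muscle scaffold protein, had a log2 fold change of -0.28 ± 0.10, with 7 of 8 run mice below the lowest control (DESeq2 adjusted p = 0.245).

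Of 42 extracellular matrix genes 2 were higher (4.76%) and 1 lower (2.38%), below the shares of all genes, and 9 were higher without D62. Timp1, an inhibitor of matrix proteases, was 0.304, 0.414, 0.973 and 1.24 CPM in robust controls, 2.86, 1.01, 2.09 and 2.11 CPM in robust run mice, 0.965, 1.11 and 0.718 CPM in frail controls and 2.39, 2.68, 2.99 and 0.976 CPM in frail run mice. It exceeded every control in 6 of 8 run mice, D61 and D62 being the others, and its log2 fold change was 1.36 ± 0.32 (DESeq2 adjusted p = 0.0262). Col4a2, a basement membrane collagen, differed by -0.35 ± 0.14 (DESeq2 adjusted p = 0.386). Of the muscle signalling regulators, the phosphatase Dusp8 differed by -0.39 ± 0.13 and Tbx15, a transcription factor of fast fibres, by -0.26 ± 0.09. Among 27 genes of PPAR and fuel switching, the fatty acid carrier Cpt1b was the 1 past the threshold (3.7%, beside 3.11% of all genes), with -0.36 ± 0.17 (DESeq2 adjusted p = 0.511). The number lower on that list was 6 without D62, and the summed level was highest in D9 (15100 CPM) and D62 (11200 CPM).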
